A study of Mus musculus with 10 samples.

Results

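The amyloid precursor family and its secretases were followed in the hippocampus of Dp5/Dp1 mice, a model of Down syndrome, through 8 genes taken by name: App, Aplp1, Aplp2, Bace1, Bace2, Adam10, Psen2 and Ncstn. Each gene was represented by 1 probe set, and the 8 were among 19938 genes tested. Total RNA of the whole hippocampus of male mice aged 16 weeks was read on Mouse Gene 1.0 ST arrays (Affymetrix), with an array for each mouse. The 5 Dp5/Dp1 mice carried the Dp5Yah and Dp1Rhr duplications of mouse chromosome 16 (Mmu16) together, 1 inherited from each parental line, and the 5 controls were littermates without a mutant allele in the labels. The duplications were present in the germ line, so every cell of the tissue carried them. The labels gave the background as C57BL/6N, whereas the methods named C57BL/6J. The titles mark the control arrays, and not those of Dp5/Dp1, as a reanalysis, without saying of what. In the titles, Dp5/Dp1 arrays carry the name Dp5Yah and give the double model in brackets.

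The precursor protein APP is a membrane protein that is cut in sequence. In the amyloidogenic route a beta-secretase (BACE1) cuts it first and the gamma-secretase complex then releases amyloid-beta, whereas an alpha-secretase such as ADAM10 cuts inside the amyloid-beta stretch. APP lies on human chromosome 21 (Hsa21), and its extra copy is a known cause of early Alzheimer pathology in Down syndrome. BACE2, also encoded on Hsa21, is a paralogue of BACE1 whose main reported cut of APP lies within the amyloid-beta stretch.

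Of the 8 genes, only Bace2 lay inside a duplicated interval, Dp1Rhr. App lay at the proximal end of Dp5Yah. It holds a loxP site used to build that duplication, and the methods describe it as expressed from a normal pair of complete copies. A start position given in the supplement lies proximal to App and would place it inside the duplication, so the sources differ on this boundary. The remaining 6 genes lay on chromosomes 1, 7 and 9. Both duplications were visible on the arrays. The mean level of the 43 measured Dp5Yah genes ran from 8.94 to 9.03 in Dp5/Dp1 mice, against 8.59 to 8.74 in controls, and that of the 28 Dp1Rhr genes other than Bace2 from 8.44 to 8.50 in Dp5/Dp1 mice, against 8.25 to 8.28 in controls. All 10 markers of hippocampal neurons, Prox1 and Wfs1 among them, were above the dimmest 40% of genes. Values are RMA log2 expression, where 1 unit is a doubling, and each difference is the Dp5/Dp1 mean minus that of controls, with its standard error (SE). Genes are called where the limma adjusted p was under 0.05. In bulk tissue, fewer cells of a type and less RNA per cell cannot be told apart.

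None of the 8 genes was called by limma (0 of 8, against 0.206% of all genes tested), and their 95% intervals all held 0 and all lay wholly below log2 of 1.5 (0.58), the ratio of 3 copies to 2. The interval of Dscam, a called gene of Dp1Rhr, also lay wholly below that line, from 0.27 to 0.49. An interval below the line therefore does not tell 2 copies from 3 on these arrays. None had an unadjusted p under 0.05, which 6.06% of all genes had, and none passed FCROS, the fold-change rank method of the study, which 5.06% did. The 2 groups overlapped for every gene of the 8, whereas they did not overlap for 1.08% of all genes. Differences ran from -0.06 for Aplp2 to 0.10 for Bace2 with a median of -0.023, against a median of 0.0019 over all genes. Of the 8, 6 had a lower and 2 a higher mean in Dp5/Dp1, and Psen2, the nearest to 0, turned higher with array weights.

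**Figure D1:**
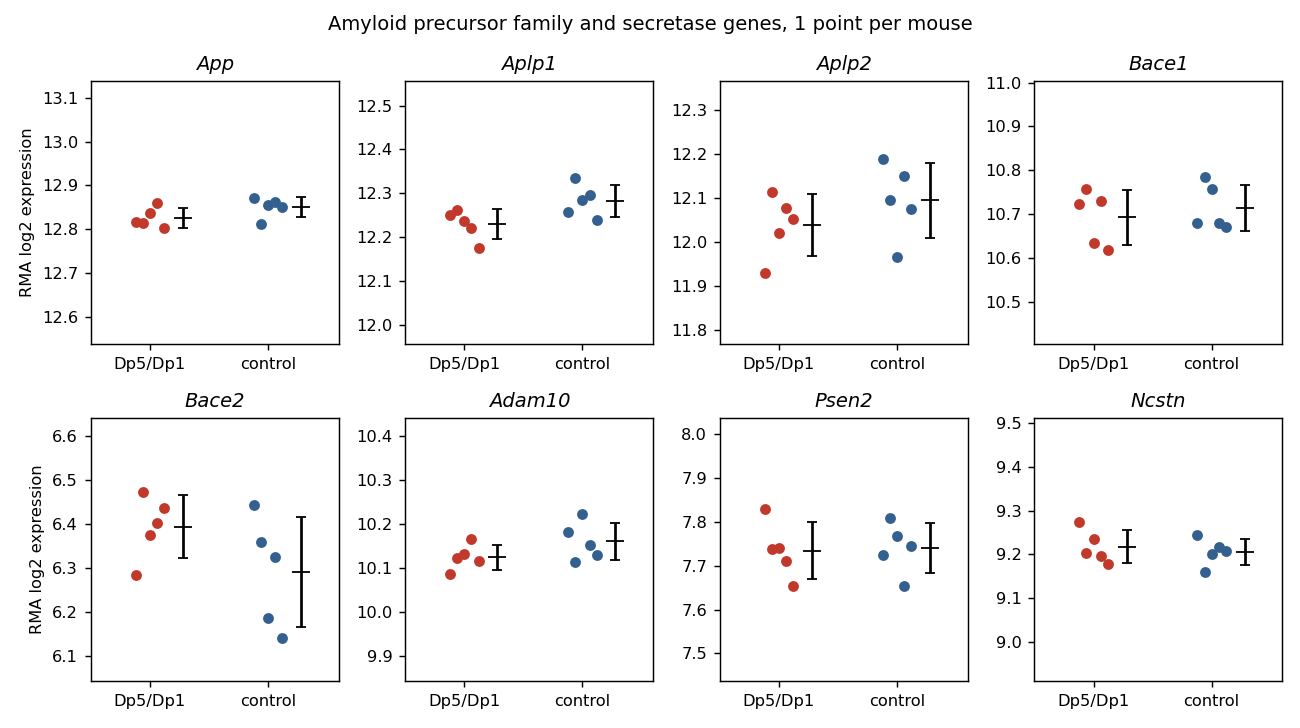
RMA log2 expression of the 8 genes, 1 point per mouse, with the group mean and SD beside the points (n = 5 per group); every axis spans the same range of log2 values but starts at its own level. Points of both groups overlap for all 8 genes, and the shift of Bace2 by 0.10 is the widest.

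App, the amyloid precursor (GRCm38 chromosome 16, 84952666 to 85175255, minus strand), was at 12.82, 12.81, 12.84, 12.86 and 12.80 in Dp5/Dp1 mice and at 12.87, 12.81, 12.86, 12.86 and 12.85 in controls. The control of 12.81 lay among the Dp5/Dp1 values, and the Dp5/Dp1 mouse of 12.86 among the controls. The means were 12.83 ± 0.02 in Dp5/Dp1 and 12.85 ± 0.02 in controls (SD, n = 5 each). The limma log2 difference was -0.024 ± 0.026 (SE; adjusted p = 0.903), with a 95% interval from -0.081 to 0.033. The interval therefore held rises of up to 2.29% and falls of up to 5.48%.

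App is transcribed from the end of the gene that faces the Dp5Yah interval, and the sources used here do not place the loxP site within the gene. The 250 bases before a RefSeq start site of App (GRCm38.p6, chr16:85173708-85173957, minus strand) are shown. They lie near the end of App towards the triplicated genes. The gene span runs on to 85175255, so the window lies inside it and not before its outermost base. The nearest edge of Cyyr1, the next measured gene, is 279.2 kb from the start site. Capitals mark the GC box GGGCGG, searched on both strands (CCGCCC on the other).
App: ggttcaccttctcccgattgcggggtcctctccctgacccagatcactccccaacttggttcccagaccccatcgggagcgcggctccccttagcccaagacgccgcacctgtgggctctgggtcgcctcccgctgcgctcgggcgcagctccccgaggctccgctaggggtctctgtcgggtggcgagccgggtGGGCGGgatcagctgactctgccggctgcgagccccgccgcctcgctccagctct
The stretch held 70.8% G and C and 1 GC box, which began 55 bases before the start site. Windows of the same length held a GC box in 32.7% of the 32851 RefSeq start sites. The table held windows for 6 of the 8 genes. Aplp1 had 1 such box, Aplp2 and Adam10 had 3 each, Ncstn had 0, and Psen2 had 2 before 1 of its start sites and 0 before the other. No window of these genes held TATAAA on either strand, a motif found in 12.4% of all windows.

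App did not share the mean rise of the 43 Dp5Yah genes, a list that runs from Adamts1 to Clic6 and leaves out Cyyr1. The mean of this list alone separated the groups (0.31 ± 0.03, exact two-sided permutation p = 0.00794). A gene without a change could therefore pass the comparison too, and the result is not particular to App. Set against the mean of the 43 Dp5Yah genes within each array, App fell by 0.33 ± 0.03 in Dp5/Dp1 relative to controls, with all 5 Dp5/Dp1 arrays below all controls (exact two-sided permutation p = 0.00794, the smallest these arrays allow; adjusted p = 0.0397 over the 5 within-array comparisons made). The difference ran from -0.34 to -0.31 when 1 array was left out. The methods list the genes just proximal to App (Mrpl39, Jam2, Atp5j and Gabpa) as outside the duplication. These 4 genes had a mean of 10.22 ± 0.06 in Dp5/Dp1 and 10.17 ± 0.04 in controls. Relative to these neighbours App was at -0.07 ± 0.04 (exact permutation p = 0.0952, adjusted p = 0.169). Without Dp5/Dp1 replicate 4 this was -0.10 (exact unadjusted p = 0.00794), and with Dp5/Dp1 replicates 2 and 5 left out together the value was -0.034 (exact unadjusted p = 0.375).

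No gene shown at this end, on either side of App, was called by limma on its own. Mrpl39, a mitochondrial ribosomal protein (84718281 to 84735244), had a difference of 0.09 ± 0.03 (adjusted p = 0.806) and was the only one of the 4 with an unadjusted p under 0.05. Jam2, an adhesion molecule of cell junctions, was at 0.07 ± 0.06, Atp5j, a subunit of ATP synthase, at 0.06 ± 0.03, and Gabpa, an ETS factor, at -0.026 ± 0.066, and none was called. Atp5j and Gabpa overlap by position. Cyyr1 (85452858 to 85550905), which the methods name both in the title of the duplication and among the genes not in 3 copies, was at 8.90, 8.91, 8.89, 8.86 and 8.73 in Dp5/Dp1 and at 8.18, 8.52, 8.35, 8.87 and 8.27 in controls. Only control replicate 4 reached the Dp5/Dp1 values, and the difference of 0.42 ± 0.11 was not called (adjusted p = 0.447). Adamts1, a metalloproteinase that cuts matrix proteoglycans, had a difference of 0.30 ± 0.11 (adjusted p = 0.806). FCROS passed Cyyr1 and Adamts1 as higher.

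**Figure D2:**
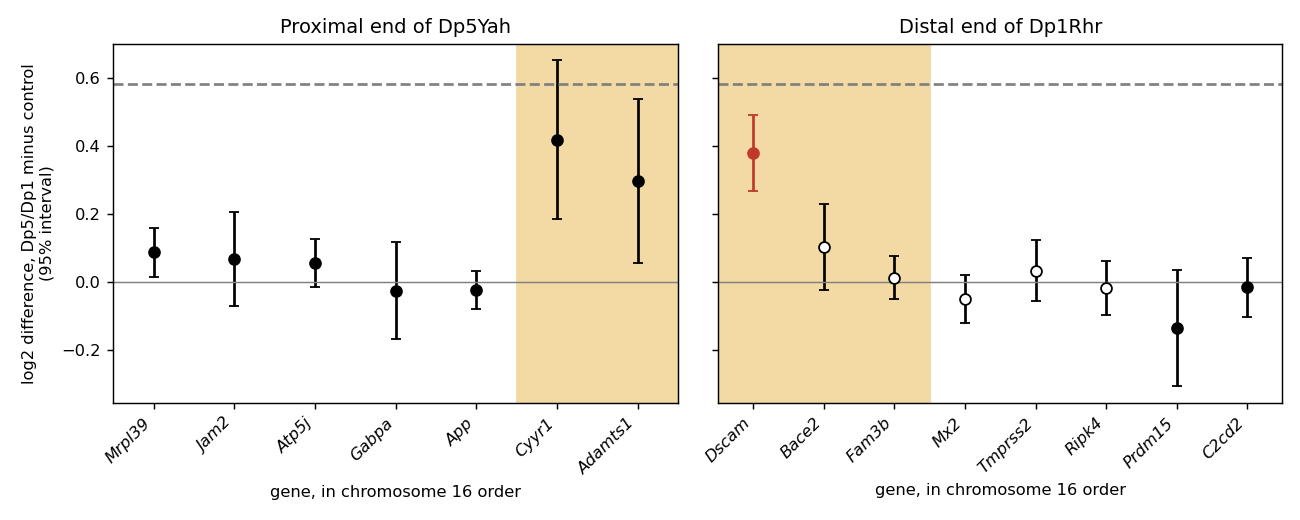
Dp5/Dp1 minus control (log2) with its 95% interval for genes at the proximal end of Dp5Yah and the distal end of Dp1Rhr, in chromosome order; shading marks the intervals as the study names them (Cyyr1 onwards, and up to Fam3b), red a called gene, hollow points the dimmest 40% of genes and the dashed line log2 of 1.5. App sits at -0.024 beside Cyyr1 at 0.42, and Bace2 at 0.10 lies between Dscam at 0.38 and Fam3b at 0.013.

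Bace2 (97356728 to 97442936), the triplicated member, was at 6.28, 6.47, 6.37, 6.40 and 6.44 in Dp5/Dp1 mice and at 6.44, 6.36, 6.19, 6.32 and 6.14 in controls. Dp5/Dp1 replicate 1 lay below 3 of the controls, and control replicate 1 lay above 4 of the Dp5/Dp1 mice. The means were 6.39 ± 0.07 in Dp5/Dp1 and 6.29 ± 0.12 in controls, and the log2 difference was 0.10 ± 0.06 (SE; 7.47% higher; limma adjusted p = 0.836). The 95% interval ran from -0.023 to 0.23, so it held rises of up to 17.4%. Its probe set was among the dimmest 40% of genes, and the part of low signal in its difference was not tested.

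Within Dp1Rhr, genes were split by signal. Of the 29 measured Dp1Rhr genes, 9 were among the dimmest 40% and limma called 0 of them, with a median difference of 0.013. Bace2 had the highest difference of the 9, followed by Ripply3, a transcriptional repressor, at 0.08 (named after its value was seen). Of the 20 brighter genes 12 were called, with a median difference of 0.33. In Dp5Yah limma called 0 of the 7 dim genes, with a median difference of 0.026, but 2 had an unadjusted p under 0.05, Donson, a replication fork protein, at 0.36 ± 0.10 (limma adjusted p = 0.496) and Adamts5, a matrix protease, at 0.11 ± 0.04 (limma adjusted p = 0.800), both named after their values were seen. By size of difference Bace2 was number 17 of the 29. The measured neighbours of Bace2 inside the interval were a bright and a dim gene. Dscam, a large adhesion molecule of neurons, was at 10.89, 10.94, 10.77, 10.89 and 10.78 in Dp5/Dp1 and at 10.50, 10.64, 10.42, 10.42 and 10.40 in controls. All 5 Dp5/Dp1 mice lay above all controls (0.38 ± 0.05, limma adjusted p = 0.00844). Fam3b, a dim gene of a cytokine-like secreted protein and the next beyond Bace2, was at 5.50 ± 0.04 in Dp5/Dp1 and 5.48 ± 0.03 in controls (0.013 ± 0.029).

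Neither a rise of Bace2 above genes with 2 copies nor a shortfall against its interval passed the test. Relative to the mean of the other 28 Dp1Rhr genes Bace2 was at -0.11 ± 0.07 (exact permutation p = 0.175, adjusted p = 0.175). With the median of those genes in place of their mean it was -0.30 (exact unadjusted p = 0.0159), and without their dim members it was -0.19 (exact unadjusted p = 0.0476). Relative to 5 genes with 2 copies just distal to the interval (Mx2, Tmprss2, Ripk4, Prdm15 and C2cd2) Bace2 was at 0.14 ± 0.08 (exact permutation p = 0.111, adjusted p = 0.169). Relative to its paralogue Bace1 it was at 0.13 ± 0.07 (exact permutation p = 0.135, adjusted p = 0.169). Control replicate 1 had the highest Bace2 of the controls. Without it the last 2 values were 0.19 and 0.17, each with an exact unadjusted p of 0.0397. Without Dp5/Dp1 replicates 2 and 5, which had the highest medial habenula markers, they were 0.08 for both (exact unadjusted p = 0.411 and 0.393). Those 2 replicates also had the highest Bace2 of the Dp5/Dp1 mice (6.47 and 6.44).

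limma called none of the 5 distal genes. Mx2, an interferon-induced GTPase, was at -0.05 ± 0.03, Tmprss2, a membrane serine protease, at 0.03 ± 0.04, and Ripk4, a kinase of epidermal cells, at -0.018 ± 0.036, and all 3 were dim. Prdm15, a zinc finger protein, was at -0.14 ± 0.08 and passed FCROS as lower, and C2cd2 was at -0.016 ± 0.040.

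**Figure D3:**
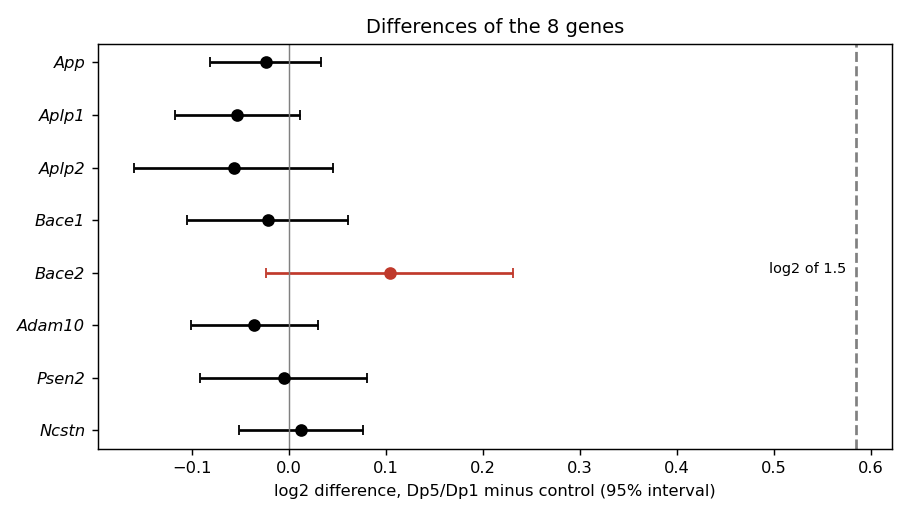
Dp5/Dp1 minus control (log2) for each of the 8 genes with its 95% interval from limma (5 mice per group); Bace2, the triplicated gene, is in red and the dashed line marks log2 of 1.5. Every interval holds 0 and ends below the dashed line, and the upper end of Bace2, at 0.23, is the nearest to it. The interval of the called triplicated gene Dscam (0.27 to 0.49, not drawn here) also ends below the line.

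The paralogues of App are close to it in protein layout but lack the amyloid-beta stretch. Aplp1, expressed mainly in neurons (chromosome 7, 30434980 to 30445582), was at 12.25, 12.26, 12.24, 12.22 and 12.18 in Dp5/Dp1 and at 12.26, 12.33, 12.28, 12.30 and 12.24 in controls. Dp5/Dp1 replicate 5 lay below all other arrays and control replicate 2 above them, while the rest overlapped. The difference was -0.05 ± 0.03 (limma adjusted p = 0.833). Aplp2, which is widely expressed (chromosome 9, 31149557 to 31211848), was at 11.93, 12.11, 12.02, 12.08 and 12.05 in Dp5/Dp1 and at 12.19, 12.10, 11.97, 12.15 and 12.08 in controls. Both groups spread over about the same range, and the difference was -0.06 ± 0.05 (limma adjusted p = 0.881). Their intervals held falls of up to 7.84% for Aplp1 and 10.5% for Aplp2.

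Among the enzymes that act first on the precursor, Bace1, the main beta-secretase of neurons (chromosome 9, 45838545 to 45862484), was at 10.72, 10.76, 10.63, 10.73 and 10.62 in Dp5/Dp1 and at 10.68, 10.78, 10.76, 10.68 and 10.67 in controls. The arrays fell into a higher and a lower set within each group. The difference was -0.022 ± 0.038 (limma adjusted p = 0.945). Adam10, the main alpha-secretase of neurons (chromosome 9, 70678944 to 70780229), was at 10.09, 10.12, 10.13, 10.17 and 10.12 in Dp5/Dp1 and at 10.18, 10.11, 10.22, 10.15 and 10.13 in controls. The groups overlapped over most of their range, and the highest mouse was a control. The difference was -0.036 ± 0.030 (limma adjusted p = 0.881). The other alpha-secretase candidates were close to it, with Adam9 at -0.041 ± 0.031 and Adam17 at -0.036 ± 0.057.

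Gamma-secretase is a complex of a presenilin, which holds the catalytic site, with nicastrin, APH1 and PEN2. Psen2, a presenilin (chromosome 1, 180227004 to 180263467), was at 7.83, 7.74, 7.74, 7.71 and 7.65 in Dp5/Dp1 and at 7.72, 7.81, 7.77, 7.65 and 7.74 in controls. The groups covered nearly the same range (-0.0057 ± 0.0394, limma adjusted p = 0.986). Ncstn, which encodes nicastrin, the substrate receptor (chromosome 1, 172066013 to 172082789), was at 9.27, 9.20, 9.23, 9.20 and 9.18 in Dp5/Dp1 and at 9.24, 9.16, 9.20, 9.22 and 9.21 in controls. Its difference was 0.012 ± 0.029 (limma adjusted p = 0.959). Of the 6 measured subunits none was called. The lowest unadjusted p among the subunits outside the 8 genes belonged to Aph1b (-0.11 ± 0.08) and Aph1c (-0.07 ± 0.06), which are near-identical paralogues whose probe signals may be shared.

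The wider pathway showed no call either. A set of 71 other genes of amyloid biology was measured, comprising secretase subunits, adaptors of the APP tail, genes that sort APP and BACE1, genes of amyloid clearance and secretase substrates. limma called 0 of the 71 (0.206% over all genes), and the groups overlapped for all of them (1.08% of all genes did not overlap). An unadjusted p under 0.05 was reached by 6 of the 71 (1 higher and 5 lower), near the 6.06% of all genes, of which 676 were higher and 532 lower. FCROS passed 3 of the 71, against 5.06% of all genes. Differences ran from -0.16 to 0.14 with a median of -0.011, and 29 had a higher and 42 a lower mean in Dp5/Dp1.

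By list, amyloid clearance and binding had the lowest p. Clu, an extracellular chaperone of astrocytes that binds amyloid-beta, was at 11.60, 11.66, 11.72, 11.59 and 11.62 in Dp5/Dp1 and at 11.74, 11.71, 11.76, 11.75 and 11.71 in controls. Only Dp5/Dp1 replicate 3 reached the control values, and the difference of -0.09 ± 0.03 was not called (limma adjusted p = 0.755). Apoe, the main lipid carrier of the brain, was at 12.96, 13.08, 13.04, 12.98 and 12.93 in Dp5/Dp1 and at 13.13, 13.09, 13.07, 13.18 and 13.03 in controls (-0.10 ± 0.04, limma adjusted p = 0.806). Both are astrocyte genes. The 9 measured astrocyte markers had a mean between 10.86 and 11.01 in Dp5/Dp1 and between 10.88 and 11.02 in controls, with 4 of them higher and 5 lower in Dp5/Dp1. Their median difference was -0.07. At an unadjusted limma p under 0.05, 1 was higher and 2 were lower (6.06% of all genes in either direction). In 1 marker all Dp5/Dp1 mice lay below all controls (1.08% of all genes did not overlap, in either direction). Their part in the values of Clu and Apoe was not tested. Of the 15 measured genes of this list 5 had a higher and 10 a lower mean.

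Among the adaptors of the APP tail, Apbb2 had a difference of -0.09 ± 0.04 (limma adjusted p = 0.818) and Mapk8ip1, a JNK scaffold, one of 0.07 ± 0.03 (limma adjusted p = 0.824). Of the 15 measured adaptors and inhibitors 7 had a higher and 8 a lower mean. Among 17 genes that sort APP and BACE1, the retromer subunits Vps26a (0.08 ± 0.03, limma adjusted p = 0.806) and Vps29 (0.07 ± 0.03, limma adjusted p = 0.824) had the lowest p, and the median of the list was -0.0018. Among 18 substrates of Bace1 and gamma-secretase the lowest p belonged to Dcc, a netrin receptor (-0.09 ± 0.03), and Cdh2, N-cadherin (-0.08 ± 0.04), both with a limma adjusted p above 0.8. FCROS passed 3 genes of that list, named after their values were seen. They were the sodium channel subunit Scn4b (0.14 ± 0.10), the Notch ligand Jag1 (-0.13 ± 0.08) and the receptor Notch1 (-0.16 ± 0.08).

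**Figure D4:**
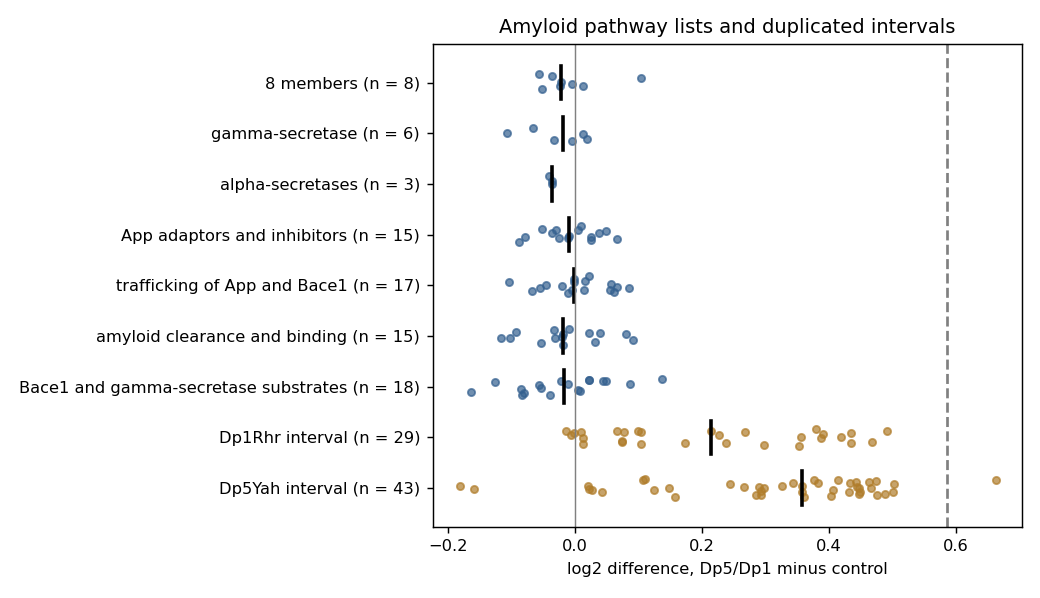
Dp5/Dp1 minus control (log2) for each measured gene of the amyloid pathway lists (blue, with the 8 genes in the top line) and of the duplicated intervals (ochre); the black bar is the median of a list and the dashed line log2 of 1.5. The amyloid lists lie within -0.16 to 0.14 with medians from -0.036 to -0.0018, whereas the medians of the Dp1Rhr and Dp5Yah intervals are 0.21 and 0.36.

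Choroid plexus markers varied between arrays, and Bace1 and the neuron markers moved against them. The mean level of the 12 measured choroid plexus markers fell into a low and a high set, from 6.86 to 7.29 on 5 arrays (3 of them Dp5/Dp1) and from 8.17 to 8.77 on the other 5 (2 of them Dp5/Dp1). Bace1 lay between 10.72 and 10.78 on the arrays of the low set and between 10.62 and 10.68 on those of the high set, with no overlap. The share of all genes that do not overlap between these sets was not computed, so the separation is not read as particular to Bace1. The mean of the 10 neuron markers was likewise at 12.20 to 12.24 on the low set and at 12.17 to 12.19 on the high set. Bace1 thus ran with this list of neuron markers and against the choroid plexus markers. Over the 10 arrays, as deviations from the group means, its Pearson r was 0.905 with the neuron list and -0.908 with the choroid plexus list. With the 10 markers of hippocampal neurons it was -0.657. The 2 neuronal lists thus went opposite ways, although both hold Prox1 and Neurod6. The part of these tissue components in the level of Bace1 was not tested. The other 7 genes overlapped between these sets, but Psen2 (7.71 to 7.83 on the low set, 7.65 to 7.74 on the high set) and Aplp1 (12.22 to 12.33 on the low set, 12.18 to 12.30 on the high set) were shifted in the same direction as Bace1. With the choroid plexus markers as a covariate the difference of Bace1 between Dp5/Dp1 and control was -0.043 (limma adjusted p = 0.781), that of App was -0.022 and that of Bace2 was 0.12, and none of the 8 genes was called. All 12 markers had a lower mean in Dp5/Dp1, although the groups overlapped (Dp5/Dp1 6.96 to 8.41, control 6.86 to 8.77).

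**Figure D5:**
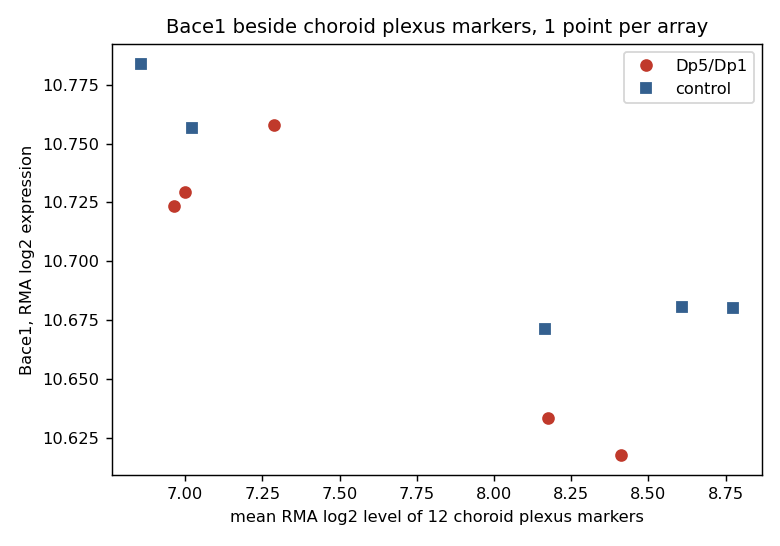
Bace1 level (RMA log2) against the mean level of 12 choroid plexus markers, 1 point per array, with Dp5/Dp1 as red circles and control as blue squares. The 5 arrays with markers at 7.29 or below have Bace1 at 10.72 or above, and the 5 with markers at 8.17 or above have it at 10.68 or below.

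Medial habenula markers were highest on Dp5/Dp1 replicates 2 (8.25) and 5 (7.65), against 6.92 to 7.13 in the other Dp5/Dp1 mice and 6.86 to 7.33 in controls. Leaving out both of these arrays gave a difference of -0.012 for App and 0.06 for Bace2, and again 0 of the 8 genes was called. The same arrays held the highest Bace2 and the lowest App values of the Dp5/Dp1 mice. The part of habenula tissue in these shifts was not tested. All 8 habenula markers had a higher and all 6 thalamus markers a lower mean in Dp5/Dp1, although both list means overlapped between the groups. Of the 7 measured endothelial markers 3 had a higher and 4 a lower mean. At an unadjusted limma p under 0.05, 2 of these 7 were higher (6.06% of all genes in either direction). The mean levels of the oligodendrocyte, microglia and neuron markers overlapped between the groups. Of the 10 neuron markers 1 was higher in all Dp5/Dp1 mice than in all controls. Over all genes, 1.08% did not overlap, in either direction.

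Over the 10 arrays, as deviations from the group means, the pattern of App was most like those of Mir125b-1 (Pearson r = 0.951), Aplnr (0.937) and Mrfap1 (0.910), of which the first 2 were dim. That of Bace2 was most like those of Slc25a46 (0.984), Eif3m (0.980) and Elavl2 (0.965). These were the highest of 19937 correlations for each gene, they share the normalization of the arrays, and they are given as a description. Among the 8 genes themselves the highest such correlation was 0.819, between Bace2 and Aplp2.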

How the data were processed

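RMA was run by the authors, who deposited its log2 values (background-corrected, quantile-normalized and summarised for each probe set). RMA, limma and mm10 are listed in the submitters' processing notes, and versions are not given in the sources used here. The platform annotation gave 21789 of the 35556 probe sets a single symbol and 1621 more than 1, and 12146 had no name here. Symbols and positions were updated through the Entrez ID with RefSeq for GRCm38 (21698 matched). For the 999 genes with several probe sets the one with the highest mean was read, which left 19938 genes. Each of the 8 genes had 1 probe set.

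Dp5/Dp1 was compared with control in limma 3.58.1 under R 4.3.3, with a two-sided moderated test (lmFit, eBayes), no covariates and p-values adjusted by Benjamini-Hochberg over all genes. The study's own test, FCROS, was rewritten from its description as an alternative. Differences within arrays were compared by an exact permutation test over the 252 assignments of arrays and adjusted over 5 comparisons. The labels call the arrays biological replicates, and the p-values set group differences against the variation between these mice. In limma the variance of each gene is moderated over all genes. The number of arrays limits the precision. No 2 arrays were identical.

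The genes named were the 8 members, their neighbours on chromosome 16, the 2 genes of lowest p in each pathway list (up to 4 had any list held more calls), and the 3 genes most like App and Bace2. Members and lists were chosen with earlier results of these data known. Scripts were tested on simulated data. Alternatives covered the dimmest 40% of genes, scaling, probe sets, variance model, weights for arrays, a block for the replicate number, tissue markers as covariates, the threshold and left-out arrays.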

Additional observations from a re-analysis of the deposited data

Results flagged for a closer look

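In 3 of 88 groups of 5 values examined (39 genes and 5 within-array comparisons, 2 groups each) 1 mouse stood far from the others of its group by Dixon's criterion, which chance meets in about 1 group in 20. None of the 8 amyloid genes was among them. Adamts1 was 8.85 in Dp5/Dp1 replicate 3, against 8.35 in the next mouse. Apbb2 was 10.13 in Dp5/Dp1 replicate 2, against 10.04 in the next. Elavl2 was 9.39 in Dp5/Dp1 replicate 1, against 9.50 in the next.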

How the results depend on the processing

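None of the 8 genes was called under any alternative or with any array left out. App stayed between -0.034 and -0.012 and Bace2 between 0.06 and 0.14, while Psen2 (-0.030 to 0.021) and Ncstn (-0.0021 to 0.029) changed sign under some. Bace2 has no value without the dimmest 40% of genes, being one of them. The count of all genes called was 41. It was 26 with the replicate number as a block, 26 with markers of choroid plexus and habenula as covariates, 21 without Dp5/Dp1 replicates 2 and 5, 1008 by FCROS, and 29 to 39 with 1 array left out. The numbers did not pair the samples (correlations of deviations -0.35 to 0.29, 1 of 5 best with its own number), and under the block App was -0.024 and Bace2 0.10. App minus its 2-copy neighbours ran from -0.10 to -0.048, and App minus the Dp5Yah genes from -0.34 to -0.31, with 1 array left out. Bace2 minus the other Dp1Rhr genes was -0.30 with the median and -0.19 without dim genes, and ran from -0.15 to -0.07 with 1 array left out. Bace2 minus its 2-copy neighbours ran from 0.095 to 0.19, and Bace2 minus Bace1 from 0.089 to 0.17. The cause of these shifts was not tested. The probe set of Bace2 was among the dimmest 40% of genes, and the number of arrays limits the precision.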
